A study of Homo sapiens with 12 samples.

Results

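IFI27, IFI6, IFI44, IFI44L and XAF1 are 5 interferon-induced genes that were chosen by their log2 fold change in KBM7 cells, where they were among the strongest increases after USP15 knockdown. All 5 had a row among the 26226 genes of the KBM7 count table, and 3 (IFI27, IFI6 and XAF1) had one among the 28328 genes of the K562 table. KBM7 and K562 are established human cell lines derived from chronic myeloid leukemia in blast crisis. Both were transfected with siRNAs against USP15, a deubiquitinating enzyme (siUSP15), or with control siRNAs (siCtrl), and total RNA was taken after 72 h. KBM7 gave 2 siUSP15 and 2 siCtrl libraries, and K562 gave 4 of each. Each line is a single model of the disease, and whether replicates came from separate cultures is not stated, which limits any p-value to the variation among these libraries. Since the KBM7 contrast chose the genes, their values in it are a description and carry no p.

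Interferons bind receptors on the cell surface, whose JAK kinases activate transcription factors. These bind interferon-stimulated response elements in the promoters of interferon-induced genes. IFI27 and IFI6 encode small hydrophobic proteins of one family, found at mitochondria and other membranes. IFI44 and IFI44L encode related cytoplasmic proteins and lie side by side. XAF1 encodes a zinc finger protein that binds the apoptosis inhibitor XIAP. All are widely used as readouts of interferon signalling.

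The genes lie at 4 places in hg38. IFI27 (ENSG00000165949) spans chr14:94104836-94116698, IFI6 (ENSG00000126709) chr1:27666061-27672218, and XAF1 (ENSG00000132530) chr17:6755447-6775647. IFI44L (ENSG00000137959) spans chr1:78619922-78646145 and IFI44 (ENSG00000137965) chr1:78649796-78664078, 3650 bases apart on the same strand. Exons of IFI6 shared 216 bases with the non-coding gene LINC02574 on the same strand, and exons of XAF1 shared 2535 bases with PRAL on the opposite strand. Reads in the bases shared with LINC02574 cannot be assigned by strand. Whether counting used the strand is not given in the sources used here, so the same may hold for the bases shared with PRAL.

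The promoter stretches below are shown because they hold the letters that the group has in common and that the choice of genes did not use. They come from RefSeq for GRCh38.p14, from a window reaching from 250 bases before to 50 bases after a start site, and are written 5′ to 3′ along the gene. The capitals mark matches on either strand to the core of the response element, searched as a pair of GAAA with any 2 bases between, or, for XAF1, to the shorter form AAANNGAAA, which lies within it. The stretches are chr14:94110608-94110670 (IFI27), chr1:27672256-27672368 on the minus strand (IFI6), chr1:78649751-78649788 (IFI44), chr1:78620264-78620404 (IFI44L) and chr17:6755995-6756043 (XAF1).
IFI27: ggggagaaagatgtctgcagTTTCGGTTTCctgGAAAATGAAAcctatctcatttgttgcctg
IFI6: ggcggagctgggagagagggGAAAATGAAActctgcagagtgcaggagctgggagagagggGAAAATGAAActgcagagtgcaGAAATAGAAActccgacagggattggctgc
IFI44: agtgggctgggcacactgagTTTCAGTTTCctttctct
IFI44L: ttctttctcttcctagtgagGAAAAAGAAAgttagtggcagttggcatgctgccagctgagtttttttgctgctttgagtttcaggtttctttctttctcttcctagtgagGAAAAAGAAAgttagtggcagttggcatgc
XAF1: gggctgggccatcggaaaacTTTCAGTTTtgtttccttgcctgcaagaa

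The core was found in windows of 4 of the 5 genes, the exception being XAF1, against 4.38% of 27305 genes with a window. The shorter form was found in all 5, against 12.6% of genes. Among 45 other interferon-induced genes with a window, 31 (68.9%) held the core and 34 (75.6%) the shorter form. IFI6 held 3 copies of the core, IFI27 and IFI44L 2 each and IFI44 1. In IFI6, a stretch of 29 bases that holds the core occurred again 41 bases further on, and in IFI44L a stretch of 85 bases that holds it occurred again after 91 bases. A repeat of at least 25 bases was present in 1.67% of 3598 windows on chromosome 1. The STAT dimer site TTCNNNGAA was found in IFI27 alone, between and overlapping its 2 core matches, and in 9.38% of all genes. A match of letters is a description and not a binding site.

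**Figure D1:**
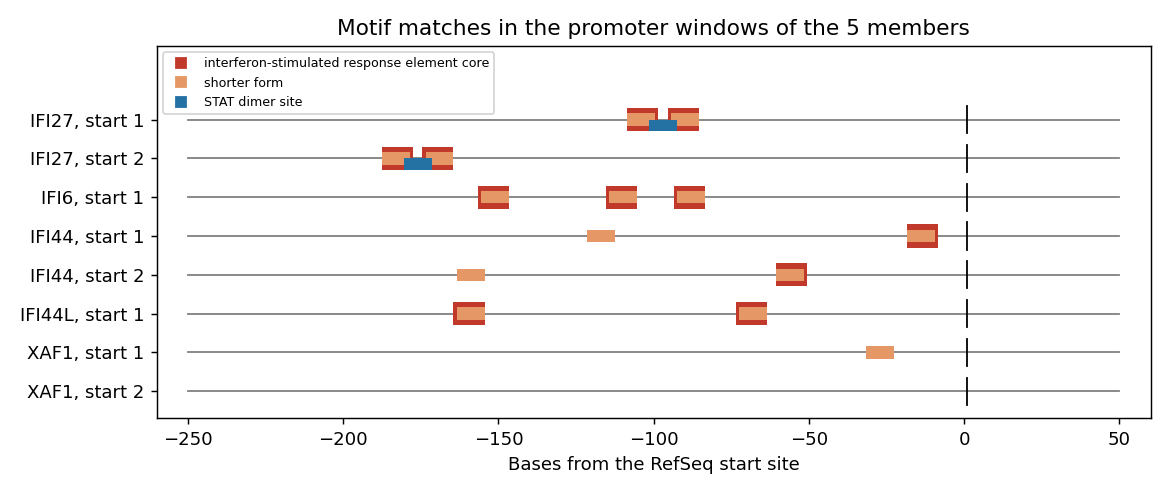
Positions of the motif matches in the 8 promoter windows of the 5 genes, in bases from the RefSeq start site (vertical tick), with 1 row per start site. The core (red) appears in 6 of 8 windows, and XAF1 has only the shorter form (orange), in 1 of its windows.

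KBM7 libraries held 23450607 to 29441118 counts and K562 libraries 23020401 to 43566543. USP15 RNA was 113.0 and 114.2 CPM (counts scaled to library size, with TMM normalization) in siUSP15 against 209.8 and 215.8 CPM in siCtrl libraries of KBM7, a ratio of 0.534. In K562 it was 115.7 to 196.7 CPM in siUSP15 against 269.1 to 342.8 CPM in siCtrl, a ratio of 0.524, with no overlap. K562 replicates 1 and 2 stood apart from replicates 3 and 4 (the first principal component held 64.4% of the variance), so K562 values are given without a block, the planned design, and with these 2 sets as a block. In K562 the fall of USP15 did not pass without a block (log2 fold change -0.93, edgeR adjusted p = 0.183). It passed with the sets as a block (-0.96, adjusted p = 4.67e-05). The USP15 ratio was 0.459 in replicates 1 and 2 and 0.577 in replicates 3 and 4. By edgeR's interaction test the USP15 change differed between the sets (adjusted p = 0.0128). Summed CPM of 6 erythroid markers was 187.5 to 210.8 in siUSP15 against 326.2 to 355.0 in siCtrl libraries of KBM7, and that of 6 myeloid markers was 294.2 to 309.3 in siUSP15 against 284.5 to 288.8 in siCtrl. Of the myeloid markers 4 rose (MPO, PRTN3, CEBPA and SPI1) and 2 fell (KIT and CD33), against 13.2% and 15.8% of all KBM7 genes. Of 5 erythroid markers tested in KBM7 all 5 fell, among them HBE1 and GATA1, and the defining lymphoid genes summed to 17.8 to 18.5 CPM in siUSP15 against 21.9 to 22.3 in siCtrl. The part of these shifts in the results below was not tested. In bulk RNA, fewer cells of a type and less RNA per cell cannot be told apart.

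In KBM7, all 5 genes were higher in both siUSP15 libraries than in both siCtrl libraries. By edgeR's quasi-likelihood test at an adjusted p under 0.05, 13.2% of 14980 KBM7 genes were higher and 15.8% were lower, and in 32.9% both siUSP15 libraries were above both siCtrl libraries. A log2 fold change over 1 was found for 283 genes (1.889%), these 5 included.

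IFI27 had 19.2 and 14.9 CPM in siUSP15 libraries, against 2.55 and 3.01 CPM in siCtrl libraries, from 548 and 354 counts against 74 and 71. Means were 17.1 ± 3.0 and 2.78 ± 0.322 CPM (SD, n = 2 each), a ratio of 6.14 and a log2 fold change of 2.63 (SE 0.157). By log2 fold change it stood at rank 7 of 14980 genes. Its relatives on the same chromosome, IFI27L1 (989 bases away) and IFI27L2 (11080 bases away), had log2 fold changes of -0.15 (adjusted p = 0.330) and 0.42 (adjusted p = 0.102) by edgeR.

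XAF1 had 58.8 and 49.2 CPM in siUSP15 libraries, against 12.8 and 12.6 CPM in siCtrl libraries. The ratio of means was 4.25 and the log2 fold change 2.09 (SE 0.0914), at rank 24 of 14980. The siCtrl libraries differed by little (SD 0.173 CPM), and the lower siUSP15 library was 3.84 times the higher siCtrl library. Its neighbour FBXO39, 575 bases away, was near 0, with 0.116 CPM in siUSP15 and 0.111 CPM in siCtrl.

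IFI44L had 195.6 and 182.0 CPM in siUSP15 libraries, against 66.4 and 60.3 CPM in siCtrl libraries, a ratio of 2.98 (log2 fold change 1.57, SE 0.0573, rank 72). IFI44 next to it had 191.7 and 182.8 CPM in siUSP15, against 94.3 and 90.9 CPM in siCtrl, a ratio of 2.02 (log2 fold change 1.02, SE 0.0473, rank 267). Means were 188.8 ± 9.62 and 63.4 ± 4.32 CPM for IFI44L and 187.2 ± 6.30 and 92.6 ± 2.39 CPM for IFI44, each with siUSP15 and then siCtrl (SD, n = 2). For both genes the lower siUSP15 library was well above the higher siCtrl library.

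IFI6 had 416.8 and 344.1 CPM in siUSP15 libraries, against 180.5 and 168.9 CPM in siCtrl libraries, a ratio of 2.18 (log2 fold change 1.12, SE 0.0747, rank 193). It was the most abundant of the group in both conditions. Its nearest expressed neighbour FAM76A, 53760 bases away, had a log2 fold change of 0.23 (edgeR adjusted p = 0.114).

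**Figure D2:**
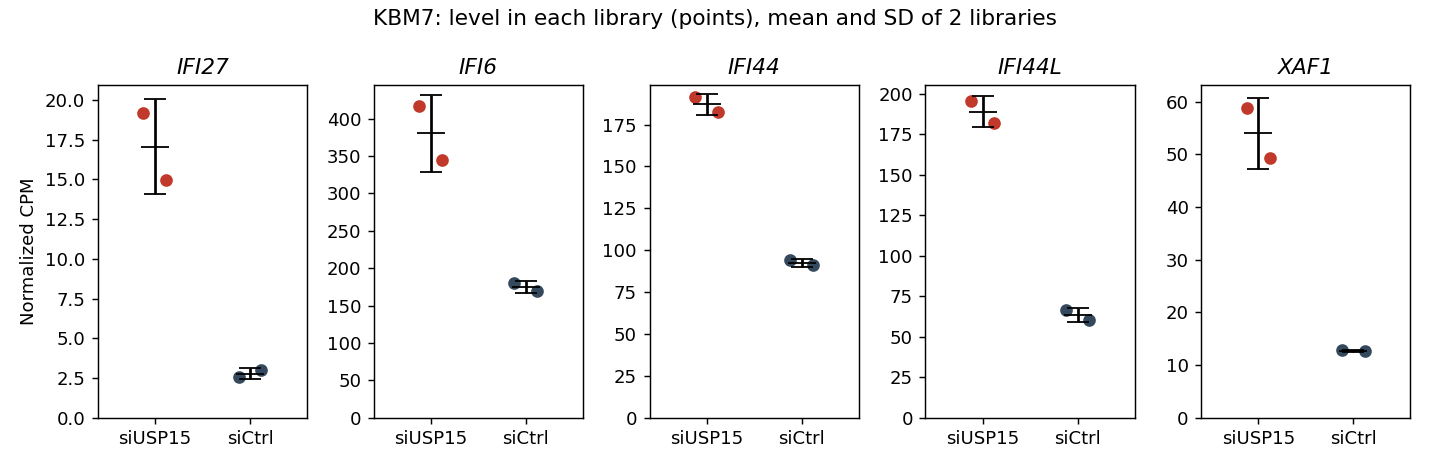
Normalized CPM (vertical axes, from 0) of the 5 genes in each KBM7 library, siUSP15 left and siCtrl right, with the mean and SD of 2 libraries. For each gene both siUSP15 points lie above both siCtrl points, by the widest ratio for IFI27 (6.14) and the narrowest for IFI44 (2.02).

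Levels of different genes were compared per kilobase of transcript. With siUSP15 the order was IFI6 (468.5 ± 63.3), IFI44 (111.3 ± 3.75), IFI44L (32.4 ± 1.65), IFI27 (23.5 ± 4.14) and XAF1 (15.8 ± 1.98 CPM per kb), and with siCtrl it was IFI6 (215.2 ± 10.1), IFI44 (55.0 ± 1.42), IFI44L (10.9 ± 0.741), IFI27 (3.83 ± 0.445) and XAF1 (3.72 ± 0.0506 CPM per kb; SD, n = 2). IFI27 and XAF1 did not differ beyond their spread with siCtrl. The highest level was 29.6 times the lowest with siUSP15 and 57.9 times with siCtrl, and the 3 genes with the lowest control levels had the larger ratios. Together the 5 genes took 827.5 CPM with siUSP15 and 346.2 CPM with siCtrl.

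In siUSP15 replicate 1 all 5 genes were higher than in siUSP15 replicate 2, by ratios of 1.05 to 1.28 (median 1.19). Of 58 other interferon-induced genes 44 were, and of all tested genes 50.1%. In siCtrl, replicate 1 was above replicate 2 for 4 of the 5, for 53 of the 58 and for 53.2% of all genes.

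Around the 5 genes, most of the other interferon-induced genes listed moved the same way in KBM7. This list, like the others used here, was chosen with earlier results of these data known. Its counts are therefore a description. Of 60 other interferon-induced genes listed, 58 were tested, 54 were higher and 2 (GBP4 and TRIM5) lower by edgeR, against 13.2% and 15.8% of all KBM7 genes. The 58 had a median log2 fold change of 0.68 against 0.00067 over all genes tested. By log2 fold change, IFI27 stood behind 2 of the 58, XAF1 behind 4, IFI44L behind 8, and IFI6 and IFI44 each behind 17. OAS1, which makes the messenger that activates RNase L, had a log2 fold change of 1.34 (adjusted p = 6.76e-08), with 144.7 and 139.4 CPM with siUSP15 against 58.3 and 54.0 CPM with siCtrl. OAS3, of the same family, rose by 1.16.

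Of the factors upstream, 6 of 8 tested STAT and IRF genes rose and none fell, against 13.2% and 15.8% of all KBM7 genes. STAT2 had 111.7 and 103.4 CPM with siUSP15, against 69.0 and 68.0 CPM with siCtrl, a log2 fold change of 0.65 (SE 0.0511, edgeR adjusted p = 3.75e-06). IRF9 had a log2 fold change of 0.28 that did not pass (adjusted p = 0.109). Of 8 receptor and kinase genes 1 rose and 3 fell, against 13.2% and 15.8% of all KBM7 genes. The 1 that rose was IL10RB, by 0.29 and close to the threshold (edgeR adjusted p = 0.0491). The fall of JAK1 (adjusted p = 0.0481) did not pass with the replicate number as a block (adjusted p = 0.0656). The others that fell were IFNAR2, a subunit of the type I receptor (fell by 0.35, adjusted p = 0.00474), and IFNGR1, of the type II receptor (fell by 0.32, adjusted p = 0.00199).

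Of 21 interferon ligand genes 6 had a row in KBM7 and 2 passed the count filter. IFNB1, encoding interferon beta, had 3.47 and 3.84 CPM with siUSP15 (99 and 91 counts), against 2.1 and 2.75 CPM with siCtrl (61 and 65 counts), and rose by 0.60 (SE 0.185, edgeR adjusted p = 0.0299). IFNL1 had a log2 fold change of 0.08 (adjusted p = 0.909). Of 7 feedback genes 3 rose, including USP18, which inhibits type I receptor signalling (0.75, adjusted p = 1.64e-06) and ISG15 (0.65), and 2 fell, SOCS3 by 1.40 and SOCS1 by 0.38. Over all KBM7 genes 13.2% were higher and 15.8% lower.

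Of 5 genes encoding proteins reported to bind the 5 proteins, 1 rose and 1 fell, against 13.2% and 15.8% of all KBM7 genes, so their share was near the background. SKP2, a ubiquitin ligase subunit, fell by 0.57 (edgeR adjusted p = 3.49e-06) and NR4A1, a nuclear receptor, rose by 0.57 (adjusted p = 0.0128), with 29.1 and 19.5 CPM in siUSP15 against 15.6 and 17.5 with siCtrl. XIAP, which XAF1 binds, had a log2 fold change of 0.01, FKBP5 of 0.05 and HSPA5 of -0.04, and none of these passed.

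**Figure D3:**
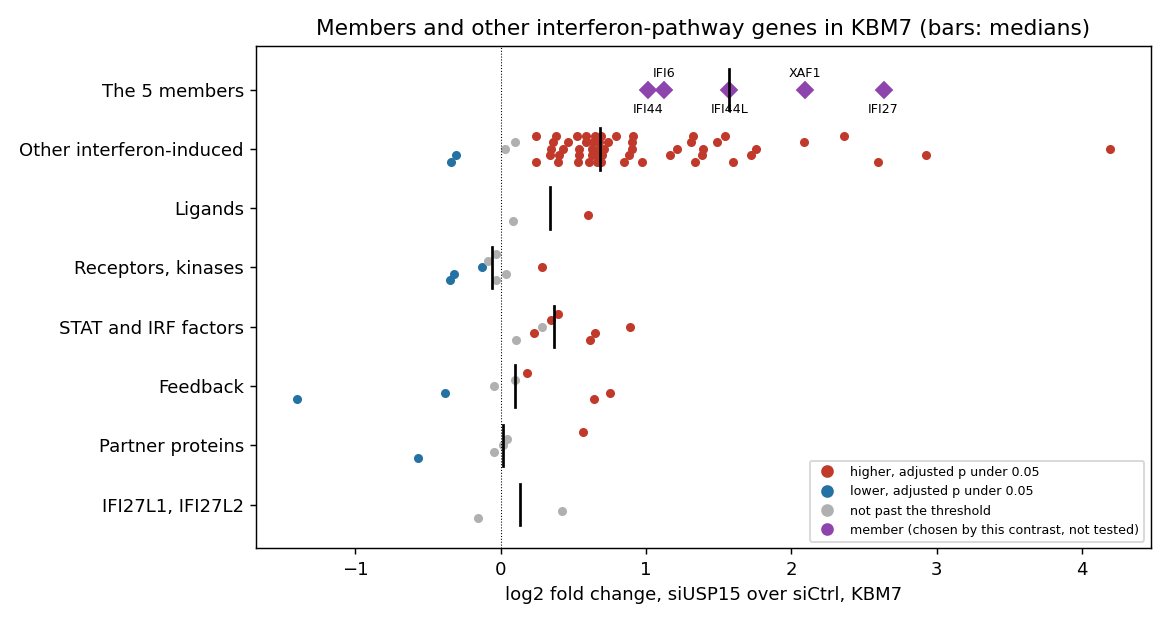
Log2 fold change (siUSP15 over siCtrl) in KBM7 of the 5 genes (diamonds) and of genes of the pathway by role, each point 1 gene and each bar a median. The other interferon-induced genes have a median of 0.68, and the receptors and kinases one of -0.06.

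In K562 these genes were at low levels, and no siRNA difference passed a threshold. Without a block 0 of 13731 genes were called by edgeR (0%; 1447 had an unadjusted p under 0.05, DESeq2 called 323 and limma-voom 0). The fall of USP15 itself was thus not called by that fit either (edgeR adjusted p = 0.183). Blocking on the sets, 6.88% of genes were higher and 8.9% were lower, and the siUSP15 effect differed between the sets for 13% of genes by the interaction test. In 3.86% of genes all 4 siUSP15 libraries were above all siCtrl libraries.

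IFI6 had 2.75, 2.39, 0.908 and 1.02 CPM in K562 siUSP15 replicates 1 to 4 (67, 105, 25 and 24 counts), against 2.07, 1.79, 0.741 and 0.653 CPM in siCtrl (49, 43, 19 and 17 counts). The sets differed more than the siRNAs did, with replicates 1 and 2 at 2.67 times replicates 3 and 4 with siUSP15 and 2.77 times with siCtrl. Over all libraries the groups overlapped (mean 1.77 ± 0.943 with siUSP15 and 1.31 ± 0.724 CPM with siCtrl, SD, n = 4; ratio 1.35). Within replicates 1 and 2 they did not overlap (ratio 1.33), nor within replicates 3 and 4 (ratio 1.38). The share of all genes that separate this way within both sets was not counted, so this is a description. The log2 fold change was 0.45 (SE 0.491, edgeR adjusted p = 0.813) without a block and 0.42 (SE 0.150, adjusted p = 0.0780) with the sets as a block. An exact permutation test, 2-sided, gave p = 0.486 over all libraries (smallest possible 0.0286) and p = 0.0556 within the sets, which is the smallest it can give. The interaction with set was 0.07 (adjusted p = 0.923).

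IFI27 had 0.535, 0.547, 0.399 and 0.382 CPM in K562 siUSP15 replicates 1 to 4 (13, 24, 11 and 9 counts), against 0.677, 0.50, 0.195 and 0.384 CPM in siCtrl (16, 12, 5 and 10 counts). The groups overlapped in each set, with ratios of 0.919 in replicates 1 and 2 and 1.35 in replicates 3 and 4. The log2 fold change was 0.11 (SE 0.349, edgeR adjusted p = 0.950) without a block and 0.09 (SE 0.269, adjusted p = 0.880) with the sets as a block, and the exact permutation p was 0.686.

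XAF1 did not pass the count filter in K562, with 0, 2, 0 and 1 counts in siUSP15 replicates 1 to 4 and 0, 0, 0 and 1 counts in siCtrl. A count of 0 allows up to 3 counts, or 0.0684 to 0.1275 CPM in a library, and a difference was not detectable at this depth. IFI44 and IFI44L have no row in the K562 table used here, and their levels in K562 were not analysed here. Every gene in that table has at least 1 count over its libraries. Whether IFI44 and IFI44L had 0 counts or were left out for another reason is not known.

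**Figure D4:**
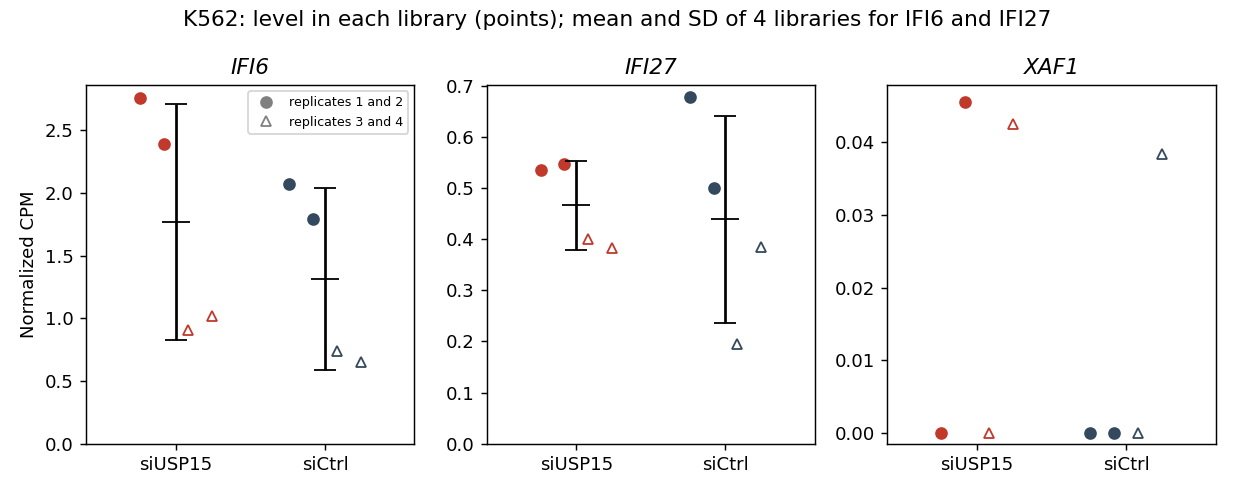
Normalized CPM (vertical axes) of IFI6, IFI27 and XAF1 in each K562 library, siUSP15 left and siCtrl right, with filled points for replicates 1 and 2 and open triangles for replicates 3 and 4. IFI6 was 1.79 to 2.75 CPM in replicates 1 and 2 and 0.653 to 1.02 CPM in replicates 3 and 4, and bars give the mean and SD of 4 libraries for IFI6 and IFI27.

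All 3 genes with a row in both tables were higher in KBM7 than in K562 under either siRNA. From summed counts, IFI6 was 207.1 times higher in KBM7 than in K562 with siUSP15 (95% exact interval 181.4 to 237.6, counting error only) and 136.0 times with siCtrl (114.2 to 163.2). IFI27 was 36.1 times higher with siUSP15 (27.6 to 48.1) and 6.36 times with siCtrl (4.50 to 9.16). For XAF1 the ratio rested on 3 and 1 counts in K562 and was 2165 with siUSP15 (740.0 to 10503) and 1262 with siCtrl (225.8 to 49926). The lines lie in separate tables whose samples carry different number prefixes, and the cell line cannot be told apart from anything else that differs between the tables.

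Of the other interferon-induced genes 40 were tested in K562. Blocking on the sets, 8 were higher and 3 lower, against 6.88% and 8.9% of all genes. The 40 had a median log2 fold change of 0.12 against 0.00099 over all genes. With the replicate number as a block 3 were higher and 1 lower, against 3% and 4.44% of all genes. With the sets as a block the 3 lower genes were ISG20 (-1.15, edgeR adjusted p = 0.0303), CMPK2 (-0.26, 0.0186) and PLSCR1 (-0.13, 0.0453). Of these only CMPK2 passed with the replicate number as a block (adjusted p = 0.0463). In KBM7, ISG20 and PLSCR1 rose (0.69 and 0.67), and CMPK2 did not pass (0.03). SAMD9 had a log2 fold change of 0.80 in both fits (adjusted p = 0.00104 and 0.00914). PSMB9, an immunoproteasome subunit, had 1.03 with the sets as a block (adjusted p = 0.0408) from 68 counts with siUSP15 and 24 with siCtrl, and did not pass with the replicate number as a block (adjusted p = 0.0814). Of the 5 binding partner genes, SKP2 (0.22, adjusted p = 0.0103) and HSPA5 (0.14, adjusted p = 0.0138) were higher and NR4A1 (-0.35, adjusted p = 0.0359) was lower with the sets as a block, and NR4A1 did not pass with the replicate number as a block (adjusted p = 0.0661). These directions for SKP2 and NR4A1 were opposite to those in KBM7, a difference that was not tested. Of 7 STAT and IRF genes in K562 neither of these fits called any, and STAT2 had 64.6, 62.3, 42.0 and 46.1 CPM with siUSP15 against 80.0, 71.4, 44.1 and 48.6 CPM with siCtrl. Whether the response differs between the lines was not tested for the 5 genes, since the KBM7 contrast chose them.

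For likeness of pattern, log2 CPM minus the siCtrl mean of the same line was correlated over 12 libraries, which include the KBM7 contrast that chose the genes, so these values are a description. Among the genes most like IFI27 were MILR1 (Pearson r = 0.986) and COG4 (0.971). Most like IFI6 were APOL1 (0.990), TNFRSF1B (0.990) and ZSCAN18 (0.983). Pearson r does not weigh the size of a change. In KBM7 the log2 fold change was 1.34 for MILR1 and 0.13 for COG4, against 2.63 for IFI27. It was 1.57 for APOL1, 0.35 for TNFRSF1B and 1.06 for ZSCAN18, against 1.12 for IFI6. For IFI44, IFI44L and XAF1 no such genes are given, since only the 4 KBM7 libraries that chose them could be used.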

How the data were processed

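RNA from 12 libraries was analysed. The authors' deposited tables hold raw counts per gene and library, 1 table per cell line. The authors' name for the K562 table includes the words batch corrected, and no source used here names the batches. The submitters' processing notes name TopHat2 2.1.0, hg38, HTSeq, edgeR and limma, while the paper's methods name another counter and test. The deposited log2 values, fold changes and p-values of the authors were not used.

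Counts were filtered with filterByExpr (minimum count 10), scaled by TMM and tested per cell line in edgeR 4.0.16 (R 4.3.3) by its 2-sided quasi-likelihood test, with Benjamini-Hochberg adjustment over all genes and a threshold of 0.05. CPM are TMM-normalized within a table. Log2 CPM use a prior count of 2. Lengths are those of the MANE Select or canonical transcript. DESeq2 1.42.0, limma-voom (limma 3.58.1), RLE size factors, no filter, blocks and each library left out were alternatives. Same-numbered K562 libraries correlated by 0.55 to 0.695 (4 of 4 pairs over 0.1), but only 2 of 4 correlated best with their own number. The difference between the sets was not removed from these values, so they cannot show whether the numbers pair the libraries. The correlation in KBM7 was 0.000978. The tests were checked on simulated counts, with the same preset dispersion for every gene and no difference between sets. This dispersion was not fitted to these libraries, and genes of low mean count were not changed. Without a block, a log2 change of 1 was recovered for 89% of changed genes in KBM7 and 100% in K562. A change of 0.5 was recovered for 33% and 72%. The real K562 libraries do differ between sets, so the K562 recovery without a block does not carry over to them. The KBM7 recovery holds for the preset dispersion only.

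The 5 genes and the 11 gene lists were chosen with earlier results of these data known. Named are the 5 genes, USP15, relatives, binding partners, neighbours, the 2 lowest p per list and, for IFI27 and IFI6, the genes most alike in pattern. One gene that this rule names is not reported here. GBP4, TRIM5, IRF9, IL10RB, ISG15, SOCS1, JAK1, the other myeloid markers, PSMB9, SAMD9, ISG20, CMPK2 and PLSCR1 were named after their values were seen. A symbol with 2 identifiers (IRF9) was read from the one in GENCODE.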

Additional observations from a re-analysis of the deposited data

Results flagged for a closer look

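In K562 siCtrl libraries XAF1 had 1 count in 1 library and 0 in the other 3, which met the gap criterion for a sample far from the others. This count lies under the 3 counts that a count of 0 allows, so the library cannot be told apart from the rest of its group. Chance marks about 1 in 20 groups of normally spread values this way. A group of 4 with counts in only 1 library always meets the criterion, so that rate does not hold here.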

How the results depend on the processing

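In KBM7 the 5 genes kept a positive log2 fold change under all 9 alternatives each. With 1 library left out the values were 2.44 to 2.80 for IFI27, 0.98 to 1.26 for IFI6, 0.99 to 1.05 for IFI44, 1.51 to 1.65 for IFI44L and 1.96 to 2.21 for XAF1, the lowest XAF1 value without siUSP15 replicate 1. The number of genes called in KBM7 was 4345, against 2552 with DESeq2 and 2214 to 5129 with 1 library left out (2214 without siCtrl replicate 1 and 2651 without siCtrl replicate 2, the lone siCtrl library then being assumed to vary like the others), and the replicate block gave 4330. In K562, 0 genes were called, against 1 with no filter on low counts, 323 with DESeq2, 1022 with the replicate block, 2167 with the sets as a block, and 0 to 1 with 1 library left out. Under the replicate block IFI6 had 0.43 (edgeR adjusted p = 0.117) and neither block changed the call of IFI6 or IFI27, the 2 genes that were tested there. With the sets as a block, leaving out 1 library gave 555 to 2639 calls (replicates 1 and 2 of siUSP15 gave 820 and 1344 when omitted, those of siCtrl 860 and 555), and IFI6 was at 0.37 to 0.49 (adjusted p 0.0757 to 0.242 over its alternatives). Without a block, leaving out 1 library gave 0.18 to 0.75 for IFI6, none past the threshold. IFI27 in K562 changed sign when 1 library was left out (-0.14 to 0.39 without a block). The interaction of set and siRNA gave 1784 calls, and 1102 with DESeq2. The causes of these shifts were not tested. Alternatives for XAF1, IFI44 and IFI44L in K562 were not run, since the first failed the filter and the others have no row there.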
